A study of Mus musculus with 12 samples.

Results

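Neural stem cell-like lines from mouse embryonic limb were set against mouse fibroblasts to ask which genes of connective tissue the limb line expressed. The word kept, as used below, compares levels with those of Fibroblasts and says nothing of the origin of the line. The comparison took 6 of 12 bead arrays, 4 of limb peripheral neural stem cells (limb pNSCs, the mean of 2 arrays labelled elpNSCs-late and 2 labelled elpNSCs-early) and 2 of Fibroblasts, and it was fitted over 10144 genes. Genes of connective tissue (mesenchymal genes) were followed through 12 lists by role, which name 437 genes, of which 398 are on the array and 338 passed the detection filter. That filter kept probes with a detection p-value under 0.05 on at least 2 of the 12 arrays, so a gene seen only in Fibroblasts could pass. Control-NSC (neural stem cells from brain, 2 arrays) and lung pNSCs (4 arrays, alpNSCs-late and alpNSCs-early, from adult lung) were used only as further references. All groups carry the same strain label, a mixture of C57BL/6, CD1 and C3H. The methods describe 2 routes to limb lines. In one, limb cells passaged in serum medium were exposed to low pH and then moved to serum-free medium with EGF and bFGF, and in the other, fresh limb cells went straight into that serum-free medium, with clusters picked by hand. The labels do not give the route of these limb arrays, the passages behind early and late or the tissue of the Fibroblasts. A figure legend of the study describes arrays of low-pH limb and lung lines beside control NSCs and fibroblasts, with 2 biological replicates. The labels use other names and do not say whether these are the same arrays. The methods call the hybridized samples biological replicates without saying whether they were separate cultures, lines or animals, and the p-values cover the spread between these arrays. The limb arrays and the Fibroblasts arrays differed in cell type, and the medium of the Fibroblasts is not in the labels, so cell type and medium cannot be told apart here. Xist, the RNA that coats the inactive X chromosome, was detected on 0 of 4 limb arrays and 2 of 2 Fibroblasts arrays, while Kdm5d and Uty, both on the Y chromosome, were detected on all 6.

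Fibroblasts build connective tissue by secreting collagens, proteoglycans and elastic fibre proteins, by crosslinking them outside the cell and by turning them over with metalloproteases. They also pull on that matrix through actin stress fibres, and they keep a memory of body position in their HOX genes. Neural stem cells grow in the presence of EGF and FGF, deposit little fibrillar collagen and express transcription factors of the SOX and OLIG families, although some surface proteins and zinc-finger factors named after mesenchyme are common to both cell types.

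Promoters of 4 genes are shown because the results below turn on them. Hoxd8, Acta2 and Col6a1 were higher in limb pNSCs than in Control-NSC, and Col3a1 was at background in limb pNSCs and abundant in Fibroblasts. Each runs from 250 bases before to 50 bases after the transcript start in RefSeq (GRCm38.p6), 5′ to 3′ on the strand of the gene, with matches to 4 searched motifs on either strand in capitals.
Hoxd8, chr2:74704365-74704664, plus strand: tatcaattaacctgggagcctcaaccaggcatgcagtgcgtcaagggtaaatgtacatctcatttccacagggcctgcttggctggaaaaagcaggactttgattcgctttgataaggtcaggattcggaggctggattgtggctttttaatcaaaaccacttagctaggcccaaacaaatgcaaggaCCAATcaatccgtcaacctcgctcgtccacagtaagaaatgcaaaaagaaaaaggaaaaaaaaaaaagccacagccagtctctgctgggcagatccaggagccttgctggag
Acta2, chr19:34255324-34255623, minus strand: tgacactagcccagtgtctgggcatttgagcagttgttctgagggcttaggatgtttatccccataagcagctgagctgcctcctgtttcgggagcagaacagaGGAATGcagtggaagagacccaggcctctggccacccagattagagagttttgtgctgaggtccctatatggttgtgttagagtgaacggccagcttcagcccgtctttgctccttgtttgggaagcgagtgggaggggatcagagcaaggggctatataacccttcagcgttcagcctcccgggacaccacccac
Col6a1, chr10:76725995-76726294, minus strand: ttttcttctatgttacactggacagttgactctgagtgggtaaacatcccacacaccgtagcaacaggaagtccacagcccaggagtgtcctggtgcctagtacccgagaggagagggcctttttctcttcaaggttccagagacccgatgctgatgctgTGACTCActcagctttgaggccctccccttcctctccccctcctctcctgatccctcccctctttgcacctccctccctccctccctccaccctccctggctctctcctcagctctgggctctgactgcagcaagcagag
Col3a1, chr1:45311288-45311587, plus strand: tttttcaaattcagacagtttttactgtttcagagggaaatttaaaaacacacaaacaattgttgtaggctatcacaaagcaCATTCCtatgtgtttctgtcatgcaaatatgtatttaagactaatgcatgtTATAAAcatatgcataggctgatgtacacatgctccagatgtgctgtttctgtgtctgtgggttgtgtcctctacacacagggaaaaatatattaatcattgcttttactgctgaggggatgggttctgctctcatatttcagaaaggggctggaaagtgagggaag
The Hoxd8 window held CCAAT, the letters bound by NF-Y, which 37.4% of all 32851 promoters in the table held. The Acta2 window held GGAATG, the letters bound by TEAD factors (14.7% of promoters). The Col6a1 window held TGAGTCA on the opposite strand, the letters bound by AP-1 (5.2% of promoters). The Col3a1 window held GGAATG on the opposite strand and TATAAA, the letters of a TATA box (13.6% of promoters). These matches are descriptions of letters. No share over the connective tissue genes is given, because the table held a promoter for only 243 of the 338 genes tested (71.9%).

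Most connective tissue genes were lower in limb pNSCs than in Fibroblasts, and a minority were kept. By limma's moderated test with Benjamini-Hochberg adjustment over all genes, 257 of the 338 connective tissue genes were called lower in limb pNSCs than in Fibroblasts (76%, against 27.4% of all genes tested), 41 were called higher (12.1%, against 37.8%) and 40 were not called. Their median difference was −1.69 on the log2 scale, against 0.13 over all genes. Of the 323 genes detected on both Fibroblasts arrays, 86 were at background in limb pNSCs, that is detected on none of the 4 limb arrays (26.6%, against 8.22% of all such genes). Of these 86, 68 were detected on no Control-NSC or lung pNSC array either. Those 68 passed the filter only through the Fibroblasts arrays, so a lower call says little for them, and their folds below are descriptions. Another 60 were detected in part, on 1 to 3 limb arrays (18.6%, against 8.14%). A further 105 were detected on all 4 limb arrays but reduced (32.5%, against 12.1%). The remaining 72 were kept (22.3%, against 71.5%), which here means detected on all 4 limb arrays with the 95% confidence interval of limb minus Fibroblasts above −1 on the log2 scale. That interval is of the mean of late and early limb pNSCs, so a kept gene need not be inside the limit in each of them. At the limit, Myh9, Plod1 and Adamts5 were just inside, with lower bounds of −0.99, −0.96 and −0.95, and Crip2, Nfix and Pdgfc were just outside, with lower bounds of −1.01, −1.02 and −1.03. In these bulk samples, fewer cells that express a gene and less RNA per cell cannot be told apart.

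**Figure D1:**
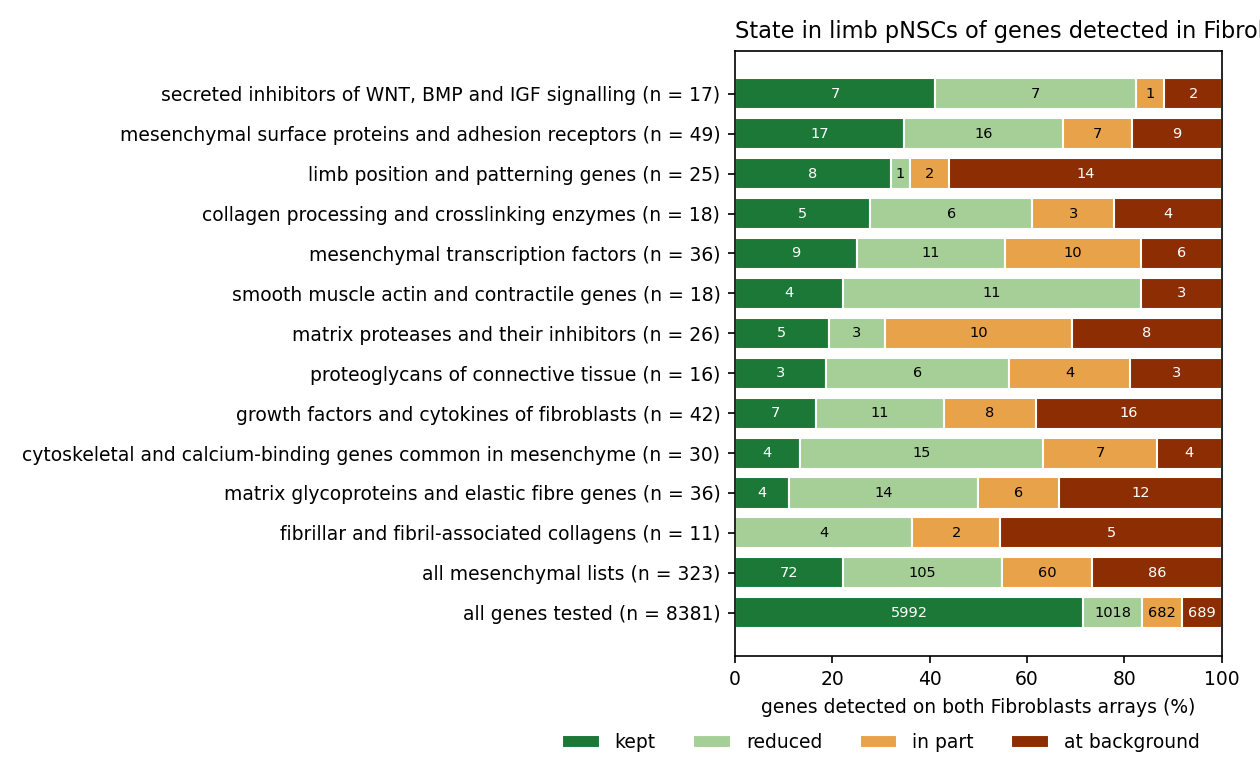
Share of the genes detected on both Fibroblasts arrays (x axis, percent) that were kept, reduced, detected in part or at background in limb pNSCs, for each of the 12 lists, all lists together and all genes tested, with gene counts in the bars. Collagens had 0 kept genes, and over all genes tested 5992 of 8381 were kept.

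The arrays were alike in depth, with 11801 to 12836 of 25697 probes detected (45.92 to 49.95%) and median raw intensities of 98.1 to 115.7. Replicate arrays correlated at r = 0.9897 to 0.9961 across genes. Limb arrays correlated with Fibroblasts arrays at a mean r of 0.789, with Control-NSC arrays at 0.969 and with lung pNSC arrays at 0.973. All 15 neural stem cell markers tested were called higher in limb pNSCs. Their list names 22 genes, of which 20 are on the array, and Sox1, Pax6, Msi1, Prom1 and Gfap did not pass the filter. Only 5 of the 15 were detected on both Fibroblasts arrays. The others could pass the filter only with arrays of the neural lines, so a higher call says little for them. Among fibroblast markers, Col1a1, Col3a1, Dcn and Lum were detected on both Fibroblasts arrays. Postn, which is on the array, did not pass the filter. The Fibroblasts arrays also carried all 4 blood and macrophage markers tested (Lyz2, Laptm5, Adgre1 and Aif1), whose intensities summed to 80.6 to 82.3 on the limb arrays, where 0 of 4 were detected, and to 907 to 975 on the Fibroblasts arrays. That list names 12 genes, of which 9 are on the array. The others on the array, Ptprc, Itgam, Tyrobp, Fcer1g and Hba-a1, did not pass the filter, so none was detected on both Fibroblasts arrays. The part of blood cells and macrophages in the Fibroblasts levels was not tested.

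Collagens were the only one of the 12 lists with no kept gene. As a reference for the counts here and in the lists below, 27.4% of all genes tested were called lower and 37.8% higher. Of all genes detected on both Fibroblasts arrays, 71.5% were kept and 8.22% were at background. Of 12 collagens tested, 11 were called lower and 0 higher, with a median of −3.99 on the log2 scale, and of 11 detected in Fibroblasts 0 were kept, 4 were reduced, 2 were seen in part and 5 were at background. Col3a1, a chain of fibrillar type III collagen, had log2 intensities of 4.27 and 4.35 on the late and 4.26 and 4.42 on the early limb arrays, against 11.09 and 10.95 on the Fibroblasts arrays. The limb values were those of an undetected probe and lay far below both Fibroblasts arrays. The difference was at least 79.6-fold (adjusted p = 4.3e-14), where "at least" marks a bound because the limb probe was not above background. Both chains of type I collagen were likewise undetected in limb pNSCs, Col1a1 being at least 33.8-fold lower and Col1a2 at least 40.9-fold lower. Col6a1, a chain of beaded-filament type VI collagen, stood apart from these. It had log2 intensities of 7.93 and 7.88 on the late and 7.78 and 7.53 on the early limb arrays, against 12.32 and 12.38 on the Fibroblasts arrays. All limb arrays detected it, at a level 23.8-fold below Fibroblasts (log2 difference −4.57 ± 0.13 SE, adjusted p = 1.05e-11). Its partner chain Col6a2 was detected on 1 of 4 limb arrays and was at least 22.9-fold lower.

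Matrix glycoproteins and proteoglycans were mostly lower too, with Tnc, Sparcl1 and Cspg4 among the exceptions. Of 38 matrix glycoprotein and elastic fibre genes, 33 were called lower and 4 higher (median −2.59), and of 36 detected in Fibroblasts 4 were kept and 12 were at background. Of 16 proteoglycans, 13 were lower and 2 higher (median −3.03), with 3 kept and 3 at background. Mgp, the matrix Gla protein that blocks calcification, had log2 intensities of 4.30 and 4.40 on the late and 4.64 and 4.53 on the early limb arrays, against 14.04 and 13.96 on the Fibroblasts arrays. It was at least 627-fold lower (adjusted p = 9.4e-15). Dcn (decorin, which binds collagen fibrils) was at least 413-fold, Bgn (biglycan) at least 467-fold and Lum (lumican) at least 132-fold lower. Tnc, tenascin-C, a matrix protein of both tendon and the neural stem cell niche, went the other way. Its log2 intensities were 12.02 and 12.04 on the late and 11.68 and 12.12 on the early limb arrays, against 8.44 and 8.63 on the Fibroblasts arrays. Every limb array exceeded both Fibroblasts arrays, and the level was 10.8-fold higher (log2 difference 3.43 ± 0.15 SE, adjusted p = 4.37e-10). Sparcl1, an anti-adhesive matrix glycoprotein gene, was 5.13-fold higher in limb pNSCs, and the membrane proteoglycan gene Cspg4 (NG2) was 2.01-fold higher.

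Collagen processing genes ranged between kept and undetected. Of 18 collagen processing and crosslinking genes, 16 were called lower and 0 higher (median −2.28), and 5 were kept, namely Plod1, Plod2, Plod3, Bmp1 and Fkbp14. Plod2, a lysyl hydroxylase, averaged 8.48 ± 0.42 on the log2 scale in limb pNSCs (SD, n = 4 arrays) and 8.35 in Fibroblasts, and the groups overlapped (difference 0.13 ± 0.21 SE, adjusted p = 0.602). The extracellular crosslinking enzymes Lox (at least 50.5-fold below Fibroblasts) and Loxl1 (at least 211-fold below) were undetected on all limb arrays. Serpinh1, which encodes the collagen chaperone HSP47, had log2 intensities of 4.52 and 4.29 on the late and 4.46 and 4.50 on the early limb arrays, against 9.98 and 9.90 on the Fibroblasts arrays. No limb array detected it, and it was at least 37.6-fold lower than in Fibroblasts (adjusted p = 4.74e-12). Serpinh1 was present in the other neural lines, at a mean log2 intensity of 8.92 in Control-NSC, 8.90 in alpNSCs-late and 9.16 in alpNSCs-early. It was at least 18.5-fold lower in limb pNSCs than in Control-NSC (adjusted p = 5.53e-10) and at least 20.1-fold lower than in lung pNSCs (adjusted p = 7.31e-11).

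Of 27 matrix proteases and protease inhibitors, 21 were called lower and 3 higher (median −2.63), and of 26 detected in Fibroblasts 5 were kept, 3 reduced, 10 seen in part and 8 at background. The stromelysin gene Mmp3 was at least 410-fold lower in limb pNSCs. Mmp14, the membrane-bound metalloprotease that cuts collagen at the cell surface, had log2 intensities of 4.17 and 4.30 on the late and 4.72 and 4.78 on the early limb arrays, against 12.72 and 12.90 on the Fibroblasts arrays. It was at least 270-fold lower than in Fibroblasts and at least 9.58-fold lower than in Control-NSC, where both arrays detected it. The tissue inhibitors of metalloproteases divided by member. Timp1, detected on 3 of 4 limb arrays, was 252-fold lower in limb pNSCs than in Fibroblasts and 10.5-fold lower than in Control-NSC. Timp2 and Timp3 were detected on every limb array and were 6.29-fold and 3.75-fold lower than in Fibroblasts, yet higher than in Control-NSC by 2.6-fold and 1.67-fold. Timp4 was 14.2-fold higher than in Fibroblasts and 1.93-fold lower than in Control-NSC. Adam12, a membrane protease of fusing and differentiating muscle and mesenchyme cells, was 18.4-fold higher than in Fibroblasts and did not differ detectably from Control-NSC (log2 difference 0.24, adjusted p = 0.38).

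The contractile genes were mostly reduced and still detected. Of 18, 15 were called lower and 0 higher (median −1.61), with 4 kept, 11 reduced and 3 at background, the last being Actg2, Tagln and Tpm2. Acta2, smooth muscle actin and the usual mark of a myofibroblast, had log2 intensities of 9.18 and 9.29 on the late and 8.08 and 8.19 on the early limb arrays, against 12.09 and 12.17 on the Fibroblasts arrays. All 4 limb arrays lay below Fibroblasts, and the late arrays lay above the early ones. The level was 10.9-fold below Fibroblasts (log2 difference −3.44 ± 0.10 SE, adjusted p = 1.4e-11). It was 9.14-fold above Control-NSC (log2 difference 3.19 ± 0.10 SE, adjusted p = 4.83e-10) and at least 15.1-fold above lung pNSCs (adjusted p = 8.16e-12). Tpm2, a tropomyosin of contractile filaments, was at least 64.6-fold below Fibroblasts. Csrp1, a LIM protein of actin bundles, was 3.41-fold below Fibroblasts and at least 3.65-fold above Control-NSC, where no array detected it.

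Cytoskeletal and calcium-binding genes that are common in mesenchyme gave 26 lower and 1 higher of 31 (median −2.00), with 4 kept and 15 reduced of 30 detected in Fibroblasts. Anxa2, a calcium-dependent membrane-binding protein, had log2 intensities of 11.94 and 12.04 on the late and 12.00 and 11.98 on the early limb arrays, against 13.97 and 14.01 on the Fibroblasts arrays. The limb arrays differed little among themselves, at 11.99 ± 0.04 (SD, n = 4 arrays). They were 4-fold below Fibroblasts (adjusted p = 1.46e-09), 4.32-fold above Control-NSC (adjusted p = 1.07e-08) and 4.86-fold above lung pNSCs (adjusted p = 6.76e-10). Vim, which encodes the intermediate filament vimentin of mesenchymal and neural stem cells alike, was 2.03-fold below Fibroblasts and 1.93-fold above Control-NSC. S100a11 was 3.69-fold below Fibroblasts and 2.37-fold above Control-NSC, and S100a10, the partner of annexin A2, was 1.78-fold below and 1.94-fold above. Emp1, an epithelial membrane protein gene, was detected on 1 limb array and was at least 564-fold below Fibroblasts.

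**Figure D2:**
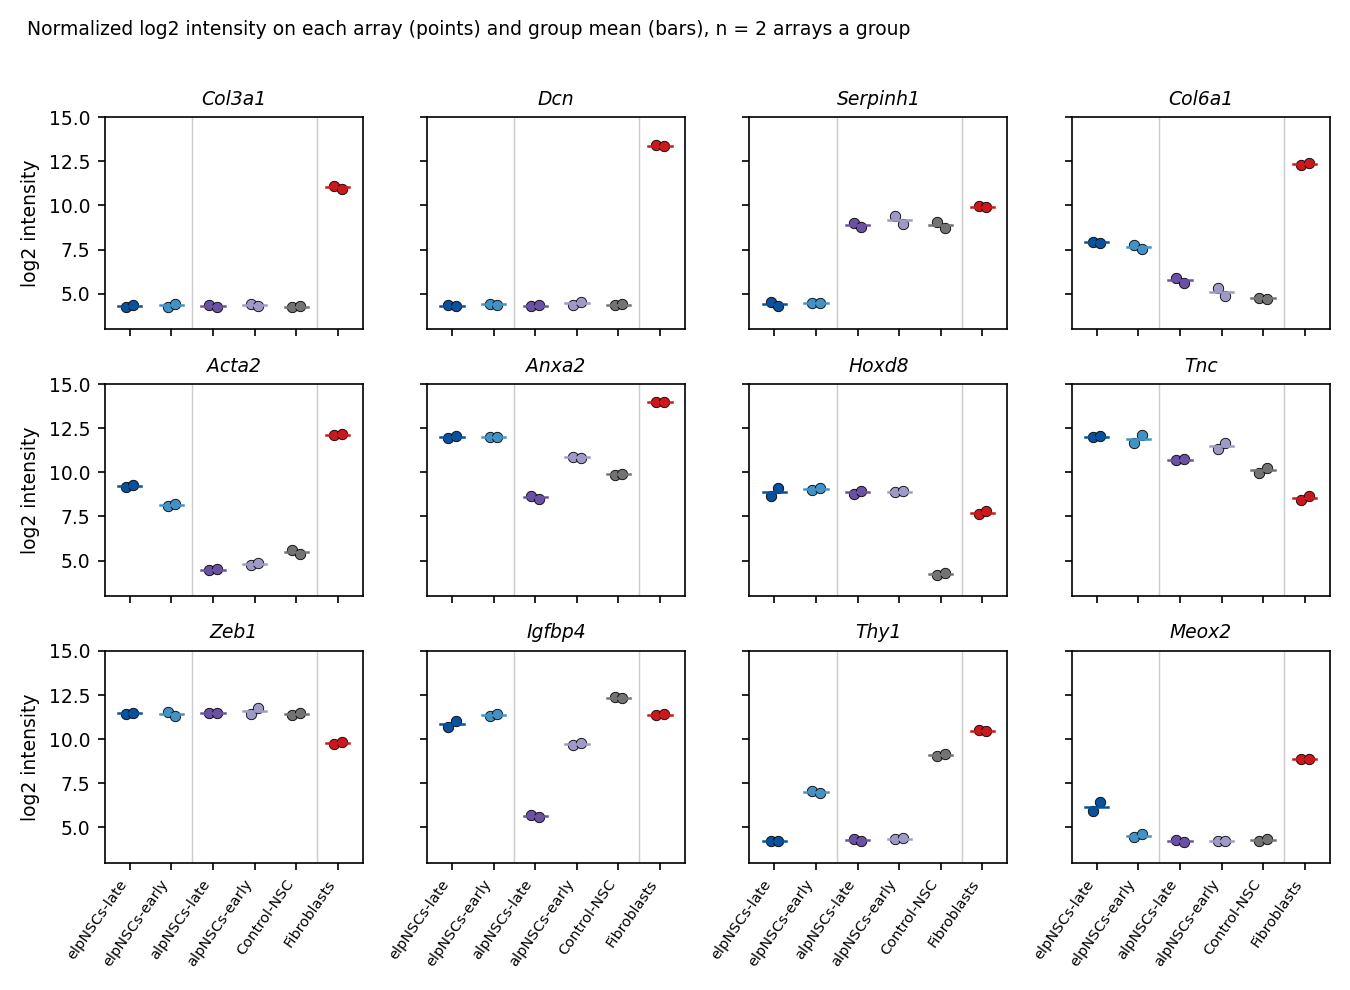
Normalized log2 intensity (y axis) of 12 genes on each array (points) with the group mean (bars), for the 2 limb groups, the 2 lung groups, Control-NSC and Fibroblasts (n = 2 arrays each). Col3a1 and Dcn lie near 4.3 in every neural line, Serpinh1 does so only in limb pNSCs among the groups plotted, and Acta2 and Col6a1 in limb pNSCs lie between Fibroblasts and the other neural lines.

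Transcription factors of mesenchyme were found in every state. Of 40 tested, 28 were called lower and 7 higher (median −1.20), against 27.4% lower and 37.8% higher of all genes tested. Of 36 detected in Fibroblasts, 9 were kept (against 71.5% of all such genes), 11 reduced, 10 seen in part and 6 at background. Twist2, a basic helix-loop-helix factor of dermis and limb mesenchyme, was undetected on all limb arrays and at least 26.9-fold lower. Osr2, a zinc-finger factor of limb and palate mesenchyme, had log2 intensities of 7.44 and 7.74 on the late and 5.79 and 5.81 on the early limb arrays, against 12.18 and 12.36 on the Fibroblasts arrays. It was 47.7-fold lower than in Fibroblasts. Zeb1, a zinc-finger repressor known for epithelial-to-mesenchymal transition and also expressed in neural progenitors, had log2 intensities of 11.44 and 11.49 on the late and 11.55 and 11.34 on the early limb arrays, against 9.70 and 9.86 on the Fibroblasts arrays. All limb arrays were above both Fibroblasts arrays, by 3.18-fold (adjusted p = 6.59e-08). Zeb1 averaged 11.41 in Control-NSC, and the difference from it had a 95% interval of −0.22 to 0.30 on the log2 scale. Hey1, a repressor downstream of Notch, was 21.7-fold and the nuclear receptor gene Nr2f1 was 5.61-fold higher in limb pNSCs than in Fibroblasts. Tead2, a DNA-binding partner of YAP, was 2-fold higher. Zeb2 was 1.96-fold higher than in Fibroblasts, a call that was lost without Fibroblasts replicate 1 (adjusted p = 0.0599), and 2.31-fold higher than in Control-NSC.

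Most limb position genes were either kept or undetected. Of 28 tested, 16 were called lower and 8 higher (median −0.73), against 27.4% lower and 37.8% higher of all genes tested. Of 25 detected in Fibroblasts, 8 were kept, 1 was reduced, 2 were seen in part and 14 were at background. The kept genes were Hoxd8, Hoxd9, Meis1, Meis2, Irx3, Irx5, Lhx2 and Sall1. Of these, only Hoxd8 and Hoxd9 were called higher than in Control-NSC, and the other 6 were not called in that comparison. Hoxd8, from the middle of the HoxD cluster, had log2 intensities of 8.68 and 9.12 on the late and 8.99 and 9.12 on the early limb arrays, against 7.61 and 7.78 on the Fibroblasts arrays. All limb arrays exceeded both Fibroblasts arrays, by 2.43-fold (log2 difference 1.28 ± 0.13 SE, adjusted p = 1.8e-06). Hoxd8 was undetected in Control-NSC, at least 18.7-fold below limb pNSCs (adjusted p = 1.14e-10), and lung pNSCs held it at 8.87 late and 8.89 early. Hoxd9 averaged 5.54 ± 0.63 in limb pNSCs (SD, n = 4 arrays) and 6.12 in Fibroblasts, with overlapping arrays, and was at least 1.72-fold above Control-NSC. Its late mean lay 1.02 above its early mean on the log2 scale, so kept describes the mean of both and not the early arrays alone. Hoxd10, the next gene of the cluster, was undetected on all limb arrays and at least 16.4-fold below Fibroblasts. Also at background were Hoxd12 and Hoxd13, which pattern the distal limb, and Hoxa11, of the forearm segment. The limb signals Fgf10 (at least 14.6-fold below Fibroblasts) and Bmp4 (at least 22.9-fold below) were undetected on all limb arrays. Meis1, a HOX cofactor of the proximal limb that is also expressed in neural tissue, was 3.63-fold above Fibroblasts, with a difference from Control-NSC of −0.12 on the log2 scale (adjusted p = 0.6).

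Surface proteins and adhesion receptors were found in every state, and more of them were lower than higher in limb pNSCs. Of 52 tested, 33 were called lower and 10 higher (median −0.78), and of 49 detected in Fibroblasts 17 were kept, 16 reduced, 7 seen in part and 9 at background. Ncam1, the neural cell adhesion molecule that condensing mesenchyme also carries, was 13.4-fold higher in limb pNSCs than in Fibroblasts. Cadm1 was 7.59-fold and N-cadherin (Cdh2) 3.78-fold higher, and Egfr, the receptor of a growth factor in the neural stem cell medium, was 1.83-fold higher. Nt5e (CD73), used as a mark of mesenchymal stromal cells, was 2.26-fold higher than in Fibroblasts. The growth factor receptor genes Pdgfra and Pdgfrb, which define many fibroblasts, were lower in limb pNSCs, by 22.3-fold with detection on every limb array, and by at least 3.26-fold with detection on none. Ly6c1 was at least 137-fold lower. Tgfbr2, the receptor that binds TGF-beta, was detected on all limb arrays, 30.2-fold below Fibroblasts and 4.01-fold below Control-NSC. Alcam (CD166) was 2.92-fold below Fibroblasts and 3.85-fold above Control-NSC, and the glycoprotein gene Pdpn was 9.09-fold below and 2.11-fold above.

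Growth factors and cytokines gave 35 lower and 3 higher of 42 (median −2.25), with 7 kept, 11 reduced, 8 seen in part and 16 at background. Igf2, a fetal growth factor, had log2 intensities of 4.43 and 4.45 on the late and 5.65 and 5.46 on the early limb arrays, against 14.13 and 14.13 on the Fibroblasts arrays. Only the early limb arrays detected it, and the mean was at least 509-fold lower than in Fibroblasts. The neutrophil chemokine gene Cxcl1 and the secreted factor gene Angptl7 were undetected on all limb arrays, Cxcl1 at least 366-fold lower and Angptl7 at least 409-fold lower. Gas6, the ligand of the AXL family of receptors, averaged 9.09 ± 0.99 on the log2 scale in limb pNSCs (SD, n = 4 arrays), 5.69 in Control-NSC and 10.94 in Fibroblasts. It was 3.6-fold below Fibroblasts and 10.6-fold above Control-NSC (adjusted p = 1.56e-09), and the late arrays lay below the early ones. Ptn (pleiotrophin) was kept, 2.3-fold above Fibroblasts, and Bdnf was 3.34-fold below Fibroblasts and 1.79-fold above Control-NSC.

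Secreted inhibitors of WNT, BMP and IGF signalling gave 10 lower and 3 higher of 17 (median −1.10), with 7 kept, 7 reduced, 1 seen in part and 2 at background. The insulin-like growth factor binding proteins diverged by member. Igfbp2 was 20.1-fold above Fibroblasts (adjusted p = 2.15e-09), and Igfbp6 was undetected on all limb arrays, at least 8.05-fold lower. Igfbp4 had log2 intensities of 10.68 and 11.05 on the late and 11.30 and 11.42 on the early limb arrays, against 11.34 and 11.40 on the Fibroblasts arrays. The groups overlapped, and the difference of −0.26 did not pass the threshold (95% interval −0.52 to −0.01, adjusted p = 0.0685), although it passed in 4 of 22 alternatives, among them the fit without elpNSCs-late replicate 2 (adjusted p = 0.0121 to 0.256 over the 22). Bmper and Htra1, which bind or cut secreted signalling proteins, were kept, at 2.12-fold and 2.99-fold above Fibroblasts. Dkk3 was undetected on all limb arrays and at least 91.9-fold below Fibroblasts.

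More connective tissue genes were higher than lower in limb pNSCs when set against brain neural stem cells. Over all 338 connective tissue genes, 65 were called higher in limb pNSCs than in Control-NSC (19.2%, against 10.2% of all genes tested) and 38 lower (11.2%, against 9.75%). Of the 72 kept genes, 13 were called higher than in Control-NSC (18.1%, against 10% of all 5992 kept genes), 7 lower (9.72%, against 8.49%) and 52 were not called (72.2%, against 81.5%). The 13 included Tnc, Hoxd8, Hoxd9, Zeb2, Cspg4, Plod2, Cd63 and Adamts4, of which Plod2 lost its call without Control-NSC replicate 1 (adjusted p = 0.07). Reduced genes, those still detected on every limb array but below Fibroblasts, that were higher than in Control-NSC included Gas6, Acta2, Col6a1, Anxa2, Csrp1 and Alcam. The comparisons with Fibroblasts and with Control-NSC share the limb arrays. The 2027 genes called against Control-NSC in all were 1152 without Control-NSC replicate 1 and 1177 without replicate 2. Of the 86 genes at background in limb pNSCs, 68 were detected on no Control-NSC or lung pNSC array, and 4 were detected on both Control-NSC arrays (Itga5, Matn2, Pcolce2 and Serpinh1).

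**Figure D3:**
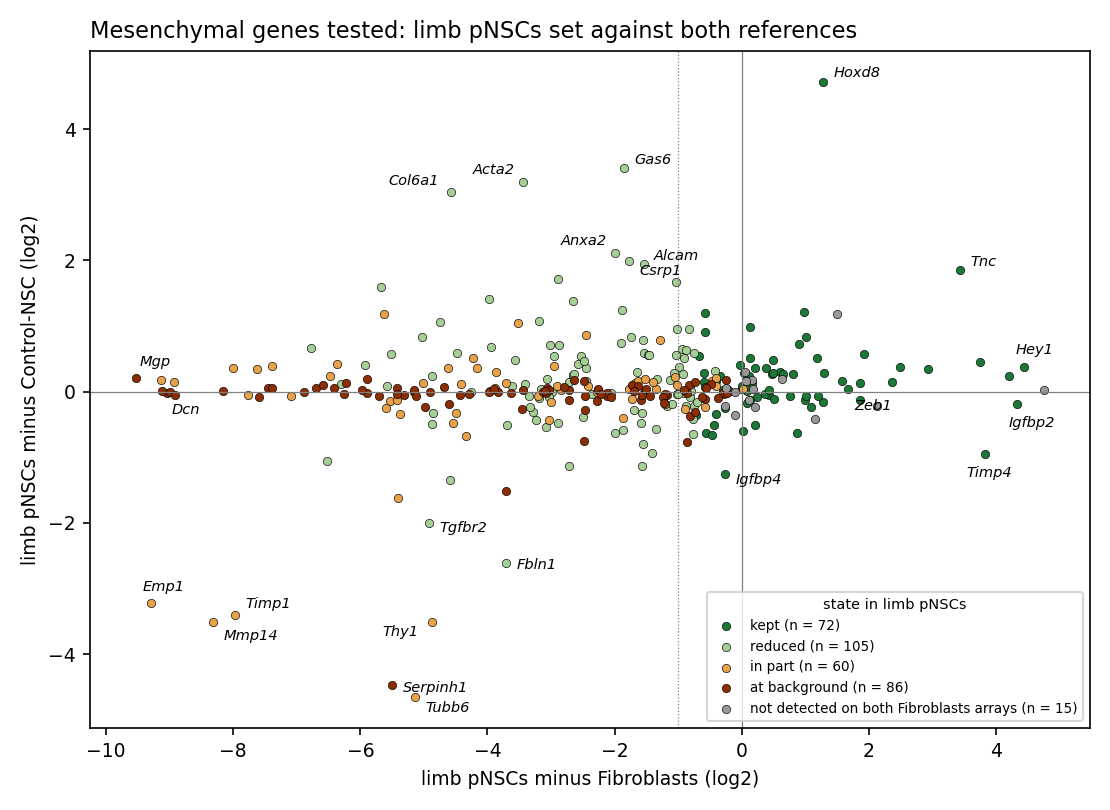
Log2 difference of limb pNSCs minus Fibroblasts (x axis) and minus Control-NSC (y axis) for the 338 connective tissue genes tested, coloured by their state in limb pNSCs, with a dotted line at −1. Genes at background lie mostly on the horizontal line, and Hoxd8 and Tnc are kept genes above it.

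Against lung pNSCs, 66 connective tissue genes were called higher in limb pNSCs (19.5%, against 7.42% of all genes tested) and 47 lower (13.9%, against 6.74%). Of the 72 kept genes, 15 were higher (20.8%, against 6.38% of all kept genes) and 13 lower (18.1%, against 4.62%) than in lung pNSCs. The inhibitor gene Timp3 and the binding protein gene Igfbp4 were among the genes higher in limb pNSCs. Timp3 had log2 intensities of 9.68 and 9.53 on the late and 9.42 and 9.53 on the early limb arrays, against means of 6.31 in alpNSCs-late and 5.99 in alpNSCs-early, and was 10.5-fold higher (adjusted p = 4.19e-10). Igfbp4 was 10.7-fold higher (adjusted p = 1.19e-10), with lung means of 5.65 late and 9.74 early. Col6a1 was 5.12-fold higher in limb pNSCs than in lung pNSCs. Hoxc6, a more anterior HOX gene, was at least 17.4-fold lower in limb pNSCs than in lung pNSCs (adjusted p = 4.11e-12), with means of 7.85 in alpNSCs-late, 10.20 in alpNSCs-early and 8.87 in Fibroblasts. Hoxd9 was 3.66-fold lower in limb than in lung pNSCs.

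More connective tissue genes were lower than higher in late limb pNSCs. Of the 338 genes, 31 were called higher in elpNSCs-late than in elpNSCs-early (9.17%, against 11.7% of all genes tested) and 79 lower (23.4%, against 12.1%). The 2413 genes called late against early in all were 1602 without elpNSCs-late replicate 2, and 944 when the spread was taken from the 4 limb arrays alone. Of the 323 genes detected in Fibroblasts, 14 were detected on both early and neither late limb array (4.33%, against 1.59% of all such genes), and 5 on both late and neither early (1.55%, against 0.501%). Tubb6, a beta-tubulin gene, had log2 intensities of 4.22 and 4.31 on the late limb arrays, against 8.60 and 8.36 on the early limb arrays. It was undetected late, at least 13.6-fold lower (adjusted p = 1.55e-09), while Control-NSC held it at 11.03 and Fibroblasts at 11.51. Thy1 (CD90), a surface protein of fibroblasts and neurons, had log2 intensities of 4.21 and 4.25 on the late limb arrays, against 7.05 and 6.95 on the early ones. It was at least 4.86-fold lower late (adjusted p = 1.41e-08), with 9.12 in Control-NSC and 10.48 in Fibroblasts. Ccn2, a secreted matricellular target of YAP and TGF-beta signalling, had log2 intensities of 4.70 and 4.55 on the late limb arrays, against 7.93 and 7.67 on the early ones, and was at least 8.48-fold lower late. Its relative Ccn1 was 6.68-fold lower late, and the basement membrane collagen gene Col18a1 was 10.5-fold lower late. The late arrays lay below the early arrays without overlap for each of these genes. Mfap2, a microfibril protein gene, was at least 4.3-fold lower late, and the BMP target gene Id1 was 3.83-fold lower late.

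A smaller set rose in the late arrays. Meox2, a homeobox factor of limb muscle and somite mesenchyme, had log2 intensities of 5.94 and 6.42 on the late limb arrays, against 4.44 and 4.61 on the early limb arrays. It was undetected early, at least 2.8-fold higher late (adjusted p = 1.51e-05), and was undetected in Control-NSC and lung pNSCs. Pdlim1, a LIM protein of stress fibres, was 4.1-fold higher late (adjusted p = 2.12e-06), Osr2 3.47-fold (adjusted p = 2.31e-06) and Acta2 2.14-fold (adjusted p = 5.27e-05). Each of the late arrays exceeded both early arrays for these genes. All remained below Fibroblasts, and for the late arrays alone the difference of Acta2 from Fibroblasts was −2.90 (95% interval −3.16 to −2.64) on the log2 scale.

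**Figure D4:**
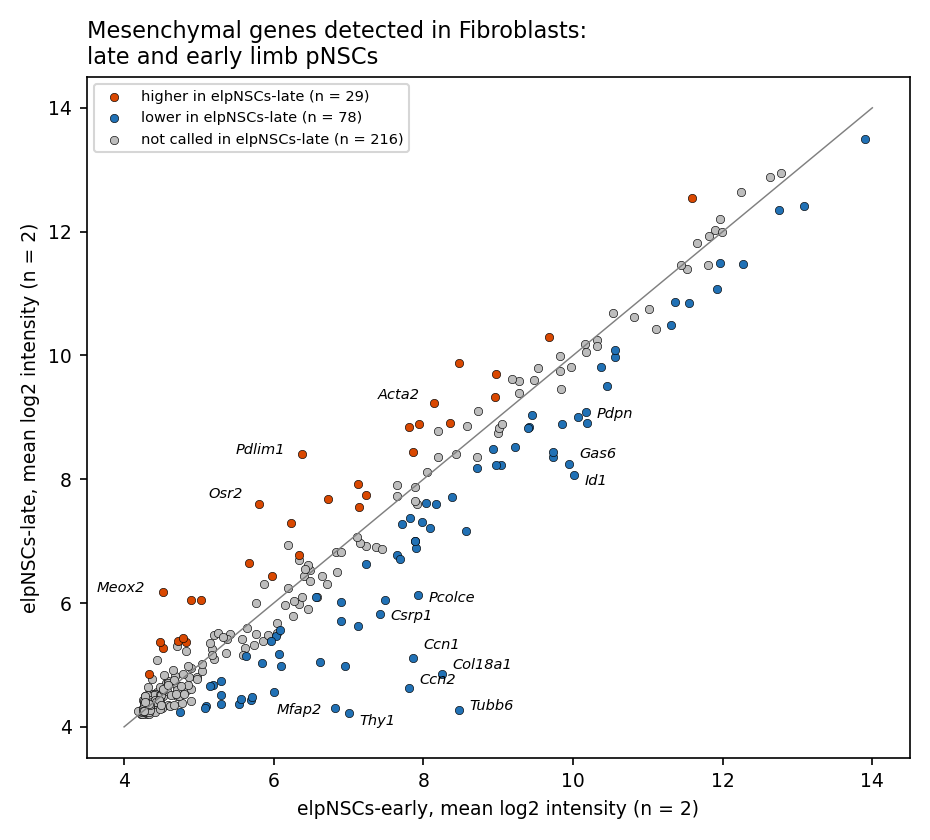
Mean log2 intensity in elpNSCs-late (y axis) and elpNSCs-early (x axis, n = 2 arrays each) of the 323 connective tissue genes detected on both Fibroblasts arrays, coloured by the late-minus-early call, with the line of equal level. Tubb6, Ccn2, Col18a1 and Thy1 lie farthest below the line, and Pdlim1, Osr2 and Meox2 lie above it.

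All 15 neural stem cell markers tested were called higher in limb pNSCs than in Fibroblasts, opposite to most connective tissue genes. Only 5 of them were detected on both Fibroblasts arrays. Among these, Slc1a3 was 19-fold, Tnc 10.8-fold, Hes1 4.52-fold and Notch1 4.1-fold above Fibroblasts, and Nes is given below. Olig1, a factor of oligodendrocyte precursors, had log2 intensities of 13.72 and 13.67 on the late and 14.02 and 13.94 on the early limb arrays, against 4.57 and 4.81 on the Fibroblasts arrays, a 567-fold difference of means (adjusted p = 1.51e-14) against a group in which 1 of 2 arrays detected the probe. Sox2 was at least 13.6-fold and Sox21 at least 52.2-fold higher than in Fibroblasts, where neither was detected. Olig1, Sox2 and Sox21 could pass the filter only with arrays of the neural lines, so their higher calls say little. Nes, the intermediate filament nestin of neural stem cells, was 6.04-fold above Fibroblasts but 2.88-fold below Control-NSC and 4.54-fold below lung pNSCs. Markers of other connective tissue cells gave small counts, with 2 higher and 3 lower of 10 cartilage markers, 1 higher and 4 lower of 6 bone markers, and 0 higher and 3 lower of 5 adipocyte markers. The higher ones were Sox5 and Sox9 of cartilage and Alpl of bone, all also detected in Control-NSC (means 9.61, 7.86 and 6.01). The cartilage matrix genes Acan, Col2a1, Matn4 and Hapln1 were detected on no limb array. Of all genes tested, 37.8% were called higher and 27.4% lower. These lists have 16 cartilage, 10 bone and 9 adipocyte markers on the array, and those not tested did not pass the filter.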

How the data were processed

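RNA was labelled with biotin and hybridized to single-colour Illumina mouse bead arrays. The deposited raw table holds signal intensities with their detection p-values, which the authors made with BeadStudio 3.2 and did not normalize. A second deposited table holds the authors' log2 values after RMA-type background correction with lumi. It was used as an alternative (r = 0.985 to 0.986 with the values used here, array medians 3.26 to 3.27).

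Raw intensities were normalized with neqc in limma 3.58.1 (R 4.3.3), that is normexp with controls inferred from the detection p-values, an offset of 16, quantile normalization and log2. This leaves undetected probes near 4.3, so low levels are compressed. Probes needed detection at p under 0.05 on 2 or more arrays. A gene took its brightest kept probe (2738 genes had more than 1), and 863 kept probes without a symbol were not tested. Of the genes called against Fibroblasts, 23 had a second probe with the opposite call, none of them named here. Groups came from the labels. One limma model of 6 groups over all 12 arrays (6 residual and 5.82 prior degrees of freedom) gave two-sided moderated tests with Benjamini-Hochberg adjustment over 10144 genes, called at adjusted p under 0.05. Intervals are 95% and unadjusted, and the number of arrays limits the precision. Values are mean ± SD over arrays, and SE is that of the fit.

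Where no array of a group detected a gene, or a limb or lung subgroup did not, the fold is a bound, set against a floor, which on each array is the lowest detected signal or the probe's own value if that is higher. The replicate numbers were not treated as pairs, since deviations of same-numbered arrays correlated at r = −0.15 to 0.24 over 15 pairs of groups, above 0.1 in 10 of them but not in all.

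The gene lists and the rule for named genes were chosen with earlier results of these data known. The rule took the largest differences from Fibroblasts, the kept genes and the genes above Control-NSC in order of size, the 4 smallest p-values in each list, the cell type markers and the largest late-minus-early calls. Outside it, Timp1, Igfbp4, Pdgfra, Pdgfrb, Actg2, Tagln, Hoxa11, Hoxd12, Hoxd13, Itga5, Matn2, Pcolce2, the remaining kept collagen processing genes, the genes at the limit of kept and the sex-linked genes were chosen after their values were seen. Alternatives covered the authors' values, background, scaling, filters, probes, the variance model, the arrays fitted, a fold threshold and each array left out.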

Additional observations from a re-analysis of the deposited data

Results flagged for a closer look

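For 47 genes named here, the difference from Fibroblasts was not the same in late and early limb pNSCs, by limma's test of elpNSCs-late minus elpNSCs-early (adjusted p under 0.05, n = 2 arrays each). Values are log2 differences, late minus early. Among matrix, protease and collagen processing genes the differences were −3.39 for Col18a1, −3.18 for Ccn2, −2.74 for Ccn1, −2.52 for Mfap2, −1.38 for Adam12, −0.88 for Sparcl1, −0.82 for Adamts5, −0.81 for Bmp1, −0.74 for Fkbp14, −0.66 for Htra1, −0.61 for Plod1, −0.59 for Timp2, −0.54 for Adamts4 and −0.52 for Mmp14.

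Cytoskeletal and contractile genes gave −4.22 for Tubb6, −1.59 for Csrp1, −0.70 for S100a11 and −0.55 for Myh9, and on the other side 1.10 for Acta2 and 2.03 for Pdlim1. Surface genes gave −2.77 for Thy1, −1.09 for Pdpn, −0.98 for Tgfbr2, −0.58 for Ncam1 and −0.41 for Cd63, against 0.58 for Cadm1, 0.80 for Nt5e and 0.98 for Pdgfra. Secreted factors gave −1.70 for Gas6, −1.12 for Igf2, −0.89 for Bmper, −0.79 for Igfbp2, −0.49 for Igfbp4 and 0.51 for Bdnf. Transcription factors gave −1.94 for Id1, −0.87 for Irx3, −0.76 for Hoxc6 and −0.43 for Irx5, against 0.73 for Meis1, 1.02 for Hoxd9, 1.65 for Meox2 and 1.79 for Osr2. Genes outside the connective tissue lists gave −4.13 for Hes5, −0.77 for Pcdh17, −0.63 for Myh8, 0.37 for Gap43 and 0.97 for Actc1.

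The call held in each of 22 alternatives for 29 of the 47 genes, and 18 lost it in at least 1. Igfbp2 kept its call in 9, Gap43 in 11, Plod1 in 13, Cd63 in 15 and Pcdh17 in 16 of the 22. These alternatives for single genes were chosen after seeing the data.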

How the results depend on the processing

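The 257 connective tissue genes called lower and the 72 kept genes stayed within 1.5 times of these counts in every alternative run. Kept genes numbered 64 with the authors' values, 82 with an offset of 50, 87 without background correction and 58 with a limit of 1.5-fold. With the replicate block, 6763 genes were called against Fibroblasts (6610 without it), 258 connective tissue genes were lower and 73 were kept. No gene named here reversed a call. Requiring a fold of at least 2 left 2826 genes called for limb pNSCs against Fibroblasts, 2701 for elpNSCs-early (5993 in the fit reported) and 3091 for elpNSCs-late (6395), and left 453 for late against early, 414 against Control-NSC and 271 against lung pNSCs (1437). Late against early gave 944 calls with only the limb arrays in the fit and 2413 with all arrays. Leaving out each array in turn gave 5665 to 6693 genes called against Fibroblasts, 249 to 257 connective tissue genes lower and 66 to 77 kept. It gave 5126 to 6075 for elpNSCs-early and 5634 to 6671 for elpNSCs-late against Fibroblasts, 1602 to 2306 for late against early, 1152 to 2294 against Control-NSC and 1100 to 1687 against lung pNSCs. A group left with 1 array was assumed to vary like the others. The causes were not tested. Undetected genes have only a bound, so their order carries no information, and levels of different probes cannot be compared.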

Other observations

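A muscle gene was high in limb pNSCs. Myh8, the perinatal myosin heavy chain, had log2 intensities of 8.92 and 8.84 on the late and 9.48 and 9.55 on the early limb arrays, against 4.32 and 4.46 on the Fibroblasts arrays. It was at least 23.6-fold above Fibroblasts, 9.61-fold above Control-NSC (adjusted p = 1.82e-10) and 7.57-fold above lung pNSCs (adjusted p = 7.57e-11). Of the 6 muscle markers tested, Actc1, a sarcomeric actin gene, was also called higher than in Fibroblasts, being detected on both late and neither early limb arrays (at least 1.59-fold higher for elpNSCs-late, adjusted p = 4.26e-05). Chrna1, Tnnc1 and Tnnt1 were lower than in Fibroblasts, and Myog was not called. The muscle list names 19 genes, of which 17 are on the array. Those on the array that did not pass the detection filter included Myod1, Myf5, Des, Acta1, Pax3 and Pax7. Of 8 neural crest and Schwann cell markers tested (13 listed), 3 were called higher and 3 lower than in Fibroblasts, against 37.8% and 27.4% of all genes tested. Gap43, a growth cone protein gene found in neurons and Schwann cells, was 4.86-fold above Fibroblasts, 9.91-fold above Control-NSC and 3.75-fold above lung pNSCs. S100b and Egr2 were also higher than in Fibroblasts and Control-NSC. Pmp22 was 5.08-fold below Fibroblasts and 1.5-fold below Control-NSC, and Tfap2b was undetected on all limb arrays. Tfap2a, a factor of neural crest and skin, was undetected on all limb arrays, against means of 7.11 in Control-NSC and 7.45 in Fibroblasts.

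A wider set of genes was chosen by values alone, namely those detected on both Fibroblasts arrays and at least 4-fold higher there than in Control-NSC. Of these 733 genes, 5 were kept in limb pNSCs, 307 reduced, 159 seen in part and 262 at background, which is a description because the choice used the Fibroblasts arrays. Besides Hoxd8, kept genes of this set included Pcdh17, a protocadherin gene, and Ldb2, which encodes a LIM domain-binding cofactor. Ldb2 had log2 intensities of 6.43 and 5.98 on the late and 6.61 and 6.64 on the early limb arrays, against 7.24 and 7.01 on the Fibroblasts arrays, and was undetected in Control-NSC and lung pNSCs. Hes5, a Notch target of neural stem cells, had log2 intensities of 4.79 and 4.64 on the late limb arrays, against 8.78 and 8.91 on the early limb arrays, and 1 of the 2 late arrays detected it.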
